A study of Mus musculus with 24 samples.

Results

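The genes described here are 10 of the calcineurin, NFAT and MEF2 pathway in the mouse left ventricle, out of 24972 genes in the expression table. They are Rcan1 and Rcan2 (calcineurin regulators), Ppp3ca and Ppp3cb (catalytic subunits), Nfatc1, Nfatc3 and Nfatc4 (NFAT factors) and Mef2a, Mef2c and Mef2d (MEF2 factors). They were chosen by name, with earlier results of these data known, and all 10 of them were in the table and passed the filter on low values. Free-wall RNA of C57Bl6/J left ventricles was sequenced in 24 libraries, which formed 8 groups of 3, male and female mice under 4 conditions. The conditions were control at day 28, metabolo-hypertensive stress at day 28 (MHS, a high-fat diet together with angiotensin II), control at day 56, and reverse remodeling after that stress at day 56 (MHS_RR). The labels name no transgene or deletion in any group, they do not say how long or at what dose the stress was given or how it was ended, and the ages of the mice were not given in the sources used here. Values were TPM, transcripts per library corrected for their length, so levels of different genes can be set side by side. The labels do not say whether each library came from a separate mouse, so p-values cover nothing beyond the spread among these libraries, which may be technical, and n = 3 libraries per group throughout.

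Groups follow the sample titles. The time tag differs from the title in 12 libraries, since libraries with MHS at day 28 in the title are tagged as untreated and day 56, and libraries with control at day 56 in the title are tagged as treated and day 28. A grouping by tags exchanges the 2 conditions. With it 0 of the 10 genes were called for MHS in males, in females and in the mean of both sexes by limma, 5 were called for MHS_RR in males and 6 in the mean of both sexes. In the mean of both sexes, MHS by tags compares the controls of the 2 days by title, where 0% of all tested genes were called. For the other tag counts the share over all genes is not given here, so they cannot be set against the whole table. The calls for MHS therefore rest on the titles being right, and so do the values for MHS_RR. Over both sexes Nfatc1 (-0.42), Nfatc3 (-0.27) and Mef2d (-0.37) were called lower in MHS_RR with the tags too, as with the titles, while Rcan1, Rcan2 and Nfatc4 were called there by tags alone. The MHS_RR effect minus the MHS effect is the same under both groupings by construction.

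Calcineurin is a phosphatase that is switched on by calcium and calmodulin. It removes phosphates from NFAT proteins, which then enter the nucleus and act on genes together with factors such as GATA4 and MEF2, and in heart muscle this route is known for its part in growth of the myocyte under load. The Rcan proteins bind and regulate calcineurin. The shorter Rcan1 transcript starts from a promoter inside the gene that NFAT is known to switch on, so its RNA is widely used as a readout of calcineurin activity. MEF2 factors are held back by class II histone deacetylases and released when kinases phosphorylate these. The activity of calcineurin, NFAT and MEF2 is set largely by phosphorylation and location, which RNA levels do not measure.

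The 2 Rcan1 promoter windows held by RefSeq for GRCm38.p6 are shown because Rcan1 was the gene with the largest increase among the 10, and because NFAT is known to act on the internal one. Each is the 250 bases before a transcript start on the minus strand of chromosome 16. Capitals mark GGAAA or its reverse complement TTTCC, the core of sites that NFAT binds. The first window lies inside the gene, at chr16:92400079-92400328, and the second, before the upstream first exon, is at chr16:92466170-92466419.
Rcan1 internal promoter: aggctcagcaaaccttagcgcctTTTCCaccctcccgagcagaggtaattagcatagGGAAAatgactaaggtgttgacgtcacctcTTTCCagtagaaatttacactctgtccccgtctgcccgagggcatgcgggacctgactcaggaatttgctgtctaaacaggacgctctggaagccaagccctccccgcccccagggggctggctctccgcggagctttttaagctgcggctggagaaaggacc
Rcan1 upstream promoter: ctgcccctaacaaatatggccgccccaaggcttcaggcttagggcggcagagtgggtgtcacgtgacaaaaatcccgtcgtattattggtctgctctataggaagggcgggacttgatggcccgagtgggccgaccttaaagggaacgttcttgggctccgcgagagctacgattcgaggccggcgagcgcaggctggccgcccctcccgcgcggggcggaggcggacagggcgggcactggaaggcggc
The internal window held 3 matches and the upstream window 0. Of all 32851 windows of this length, 6.39% held 3 or more and 55.6% held at least 1. Windows of this kind were counted for 8 of the 10 genes (14 windows), of which 7 held a match. Windows of the 10 genes on the chromosome of Nfatc1 were left out of this count, while the share over all windows includes that chromosome. Among them were 5 matches in 1 of the 3 Mef2c windows, at chr13:83503784-83504033, and 3 each in the windows of Nfatc4 and Ppp3cb. The MEF2 box (both strands, since it is its own reverse complement) was in 0 of the 14 windows and in 0.508% of all windows. The deposited table gives 1 value per gene, so the 2 Rcan1 transcripts cannot be separated.

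Levels over the 24 libraries set the genes apart. Rcan2 was the most abundant, with a mean of 391 TPM, higher than 97.2% of the tested genes. Rcan1 (105 TPM), Mef2a (101 TPM) and Mef2d (97.3 TPM) followed, then Ppp3cb (55.4 TPM), Ppp3ca (35.3 TPM) and Mef2c (30.6 TPM). The NFAT genes were lowest, with 13.8 TPM for Nfatc3, 13.4 TPM for Nfatc1 and 3.40 TPM for Nfatc4. The libraries had heart muscle RNA throughout, with sums of 5 cardiomyocyte markers between 30578 and 40278 TPM, and T and B cell markers between 2.42 and 7.87 TPM. Some libraries stood apart. The atrial light chain gene Myl7 was at 625 TPM in female control day 28 replicate 2 and at 125 TPM in female MHS replicate 3, and Y-linked genes were at 26.1% of the male mean in female MHS_RR replicate 3. Transcript length and GC content accounted for 28.2% of how male control day 28 replicate 1 deviated from the mean library, 30.6% in male control day 56 replicate 1 and 14.6% in female control day 56 replicate 3, which were the 3 highest shares. In this bulk tissue, fewer cells of a type and less RNA per cell cannot be told apart.

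The first question was how these genes differed under MHS at day 28. Rcan1 rose in males. It was at 116, 119 and 85.5 TPM in the male controls and at 188, 202 and 241 TPM in the male MHS libraries. The ranges did not overlap, and the mean went from 107 ± 18.6 to 210 ± 27.6 TPM (SD). On the log2(TPM + 1) scale the difference was 0.98 ± 0.17 (SE, adjusted p = 0.000767, limma), a fold of 1.97. The call held when any single library was left out (adjusted p between 0.00161 and 0.00772) and under 13 other settings that kept the groups, between 0.000523 and 0.0155.

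In females Rcan1 was at 71.0, 63.1 and 63.6 TPM in controls and at 75.6, 103 and 85.1 TPM under MHS. All 3 MHS libraries were above all 3 controls, yet the difference of 0.40 ± 0.17 was not called (adjusted p = 0.192, limma). The female minus male difference of the MHS effect was -0.58 ± 0.23, with an unadjusted p of 0.0223 and an adjusted p of 0.964, so a difference between the sexes in the Rcan1 response was not called. Its 95% interval reached from -1.07 to -0.09. Over both sexes Rcan1 rose by 0.69 ± 0.12 (adjusted p = 0.000314).

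Rcan2, a paralogue known from heart, muscle and brain, rose in both sexes by a smaller amount. In males it was at 361, 345 and 395 TPM in controls and at 442, 472 and 469 TPM under MHS, with ranges that did not overlap. The difference was 0.33 ± 0.08 (adjusted p = 0.0152, limma). In females the controls were at 354, 334 and 370.2 TPM and the MHS libraries at 414, 419 and 483 TPM, a difference of 0.31 ± 0.08 (adjusted p = 0.0319). The female minus male difference was -0.02 ± 0.12. The single-sex calls were less firm than that of Rcan1 in males. The male call ended without male control replicate 2 or male MHS replicates 2 or 3 (adjusted p = 0.0820, 0.0640 and 0.0627). The female call ended without any one of the 3 female controls or of MHS replicates 2 and 3 (adjusted p between 0.0528 and 0.163), and without the 2 libraries with the highest Myl7 the difference was 0.20 (adjusted p = 0.365). The mean of both sexes, 0.32 ± 0.06 (adjusted p = 0.000696), held without any single library.

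**Figure D1:**
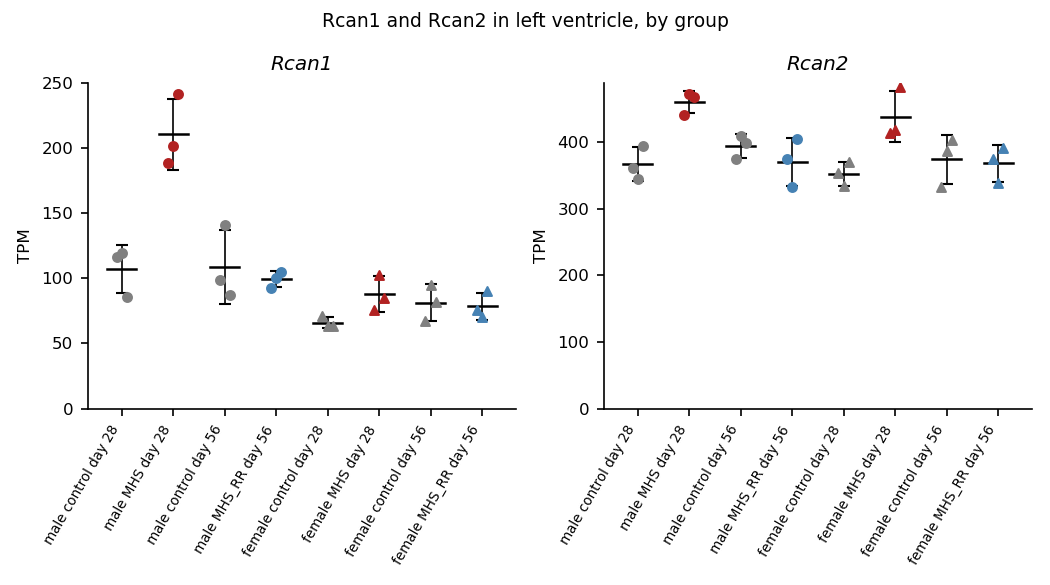
TPM (vertical axes, from 0) of Rcan1 and Rcan2 in each of the 24 libraries (circles male, triangles female; grey control, red MHS, blue MHS_RR), with group means as lines and SD as bars (n = 3). For Rcan1 the 3 male MHS libraries, at 188 to 241 TPM, lay above every other library, while MHS_RR libraries lay among the controls.

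The order of the group means showed the sexes apart. Rcan1 was highest in male MHS (210 ± 27.6 TPM), and then came male controls at day 56 (109 ± 28.2 TPM) and day 28 (107 ± 18.6 TPM) and male MHS_RR (99.3 ± 5.96 TPM), which did not differ beyond their spread. Female MHS (87.8 ± 13.7 TPM), female controls at day 56 (81.3 ± 14.0 TPM) and female MHS_RR (78.6 ± 10.3 TPM) overlapped as well, and female controls at day 28 were lowest (65.9 ± 4.45 TPM). Over the controls of both days Rcan1 was lower in females than in males by 0.54 ± 0.12 (adjusted p = 0.0269, limma). It was the only one of the 10 genes called lower in females, where 0.437% of the tested genes were. The others lay between -0.07 (Rcan2) and 0.36 (Mef2a), not called. The call ended without any one of 7 of the 12 control libraries (adjusted p between 0.0530 and 0.0854) and in a fit to the compared groups alone (0.115). Between the control days 0 of the 10 genes were called, and 0% of all genes (limma, 642 genes with an unadjusted p under 0.05), with differences from -0.18 (Ppp3ca) to 0.15 (Rcan1).

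None of the other 8 genes was called under MHS in a single sex by limma. Mef2c in males was at 0.35 ± 0.22 (adjusted p = 0.356), as large as the Rcan2 difference but with a wider spread, and in the mean of both sexes Nfatc1 was at 0.08 ± 0.10 and Mef2d at -0.01 ± 0.09. Nfatc4, the NFAT gene with the lowest level here, was at 2.84, 3.02 and 2.57 TPM in male controls and at 3.80, 4.60 and 3.32 TPM in male MHS. In females it was at 3.29, 4.22 and 2.97 TPM in controls and at 3.33, 4.89 and 4.63 TPM under MHS. Male ranges did not overlap and female ranges did. Neither sex alone was called (adjusted p = 0.114 and 0.428), and in the mean of both sexes Nfatc4 rose by 0.29 ± 0.10 (adjusted p = 0.0433). That call ended without any one of 9 of the 12 libraries (adjusted p between 0.0525 and 0.124) and held in 6 of 12 other settings that kept the groups. It ended with no filter (0.0614), a median-of-ratios or quantile scaling (0.0640 and 0.0940), a fit to the compared groups (0.0895), and without the 3 libraries with the largest GC and length deviations (0.0705) or the 2 with the highest Myl7 (0.0512). The sum of 5 fibroblast markers was 602 to 723 TPM in male controls and 965 to 1058 TPM in male MHS. In females it was 713 to 880 TPM and 879 to 1179 TPM, and 3 of the 5 were called higher in the mean of both sexes. The part of fibroblast RNA in the Nfatc4 result was not tested. The sum of 5 cardiomyocyte markers was 35093 to 39206 TPM in male controls and 30692 to 32586 TPM in male MHS. In females it was 35717 to 40278 TPM and 30578 to 34909 TPM, with 2 of the 5 called lower and 1 higher in the mean of both sexes. Its part in the MHS results was not tested either. Nfatc3 was above all controls in male MHS (14.3, 15.5 and 15.9 against 13.0, 12.6 and 13.9 TPM) without a call (0.19 ± 0.11, adjusted p = 0.282).

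In males 2 of the 10 genes were called higher under MHS (Rcan1 and Rcan2), against 7.71% of all tested genes, and 0 lower. Ranges lay above the controls for 4 of the 10 and for 19% of all genes. In females 1 was called higher (Rcan2), against 3.4%, and the ranges of 2 lay above, against 11.4%. In the mean of both sexes 3 were called higher, against 11.6%, and 0 lower, against 6.24%. The median difference of the 10 genes was 0.08, and that of all tested genes 0.04. The female minus male test called 0 of the 10 for MHS, where 0.00766% of genes were called, and 0 for MHS_RR, where 0% were (limma, 564 and 459 genes with an unadjusted p under 0.05).

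**Figure D2:**
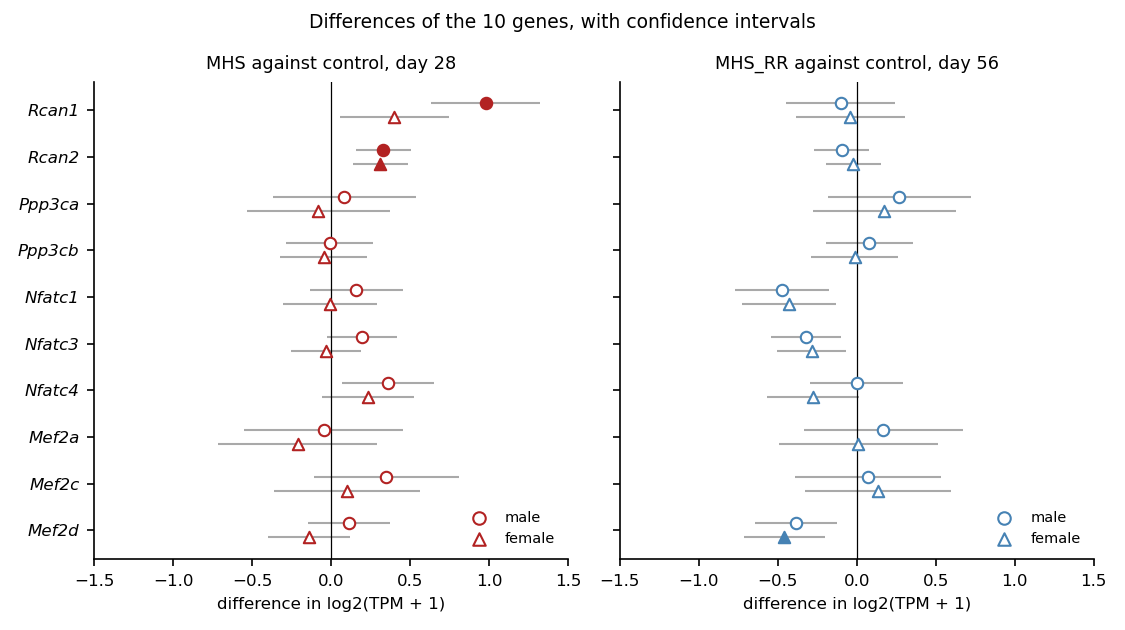
Differences in log2(TPM + 1) from control (horizontal axis) of each of the 10 genes under MHS at day 28 (left) and MHS_RR at day 56 (right), in males (circles) and females (triangles), with 95% intervals from limma and filled symbols at an adjusted p under 0.05. Rcan1 and Rcan2 lie to the right under MHS, while Nfatc1, Nfatc3 and Mef2d lie to the left under MHS_RR in both sexes.

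The next question was which of these genes differed from control after reverse remodeling. Rcan1 and Rcan2 were close to the controls of day 56. Rcan1 was at 98.6, 141 and 87.1 TPM in male controls and at 92.8, 101 and 104 TPM in male MHS_RR, a difference of -0.10 ± 0.17 (adjusted p = 0.773, limma). Female libraries were at 67.0, 95.0 and 82.0 TPM in controls and at 75.6, 70.1 and 90.0 TPM in MHS_RR (-0.04 ± 0.17, adjusted p = 0.921). Rcan2 differed by -0.09 ± 0.08 in males and by -0.02 ± 0.08 in females, neither called. In the mean of both sexes the 95% interval of the difference was -0.32 to 0.17 for Rcan1 and -0.18 to 0.07 for Rcan2.

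Over both sexes Mef2d, Nfatc1 and Nfatc3 fell. Mef2d, the MEF2 factor that has been tied to stress-dependent growth of the adult mouse heart, was at 101, 95.2 and 104 TPM in male controls and at 82.8, 62.8 and 84.9 TPM in male MHS_RR. In females it was at 95.8, 115 and 124 TPM in controls and at 91.3, 67.7 and 84.5 TPM in MHS_RR. Ranges did not overlap in either sex. It fell by 0.46 ± 0.12 in females (adjusted p = 0.0385, limma) and differed by -0.39 ± 0.12 in males (adjusted p = 0.127, not called). The mean of both sexes was -0.42 ± 0.09 (adjusted p = 0.00411). The female call ended without control replicates 2 or 3 (adjusted p = 0.123 and 0.187) or MHS_RR replicates 2 or 3 (0.232 and 0.0776), of which MHS_RR replicate 3 is the library with Y-linked RNA, and at a median-of-ratios scaling (0.0852).

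Nfatc1, the NFAT factor needed for heart valve formation and expressed in endocardium, was at 17.5, 11.5 and 15.6 TPM in male controls and at 10.6, 8.70 and 11.8 TPM in male MHS_RR. The female values were 13.4, 14.8 and 16.1 TPM in controls and 11.1, 9.93 and 11.0 TPM in MHS_RR, below all controls. Male ranges overlapped by 1 library on each side. Differences were -0.47 ± 0.14 in males (adjusted p = 0.110) and -0.43 ± 0.14 in females (0.0797), not called alone, and Nfatc1 fell in the mean of both sexes by 0.45 ± 0.10 (adjusted p = 0.00576).

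Nfatc3, which carries much of the growth signal of calcineurin in the mouse heart, was at 14.2, 14.8 and 15.3 TPM in male controls and at 12.0, 9.73 and 13.3 TPM in male MHS_RR, all below. Female values were 13.8, 16.6 and 15.2 TPM in controls and 13.9, 11.3 and 11.7 TPM in MHS_RR, where 1 MHS_RR library reached the lowest control. Differences were -0.32 ± 0.11 in males (adjusted p = 0.133) and -0.29 ± 0.11 in females (0.113), neither called, and -0.30 ± 0.07 in the mean of both sexes (adjusted p = 0.0100). These 3 calls in the mean of both sexes held without any single library and under 13 other settings (adjusted p up to 0.0404 for Nfatc1, 0.0434 for Nfatc3 and 0.0348 for Mef2d). Nfatc4 lay below its controls in females (2.40 to 3.28 against 3.47 to 4.07 TPM) without a call (-0.28 ± 0.14, adjusted p = 0.239).

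**Figure D3:**
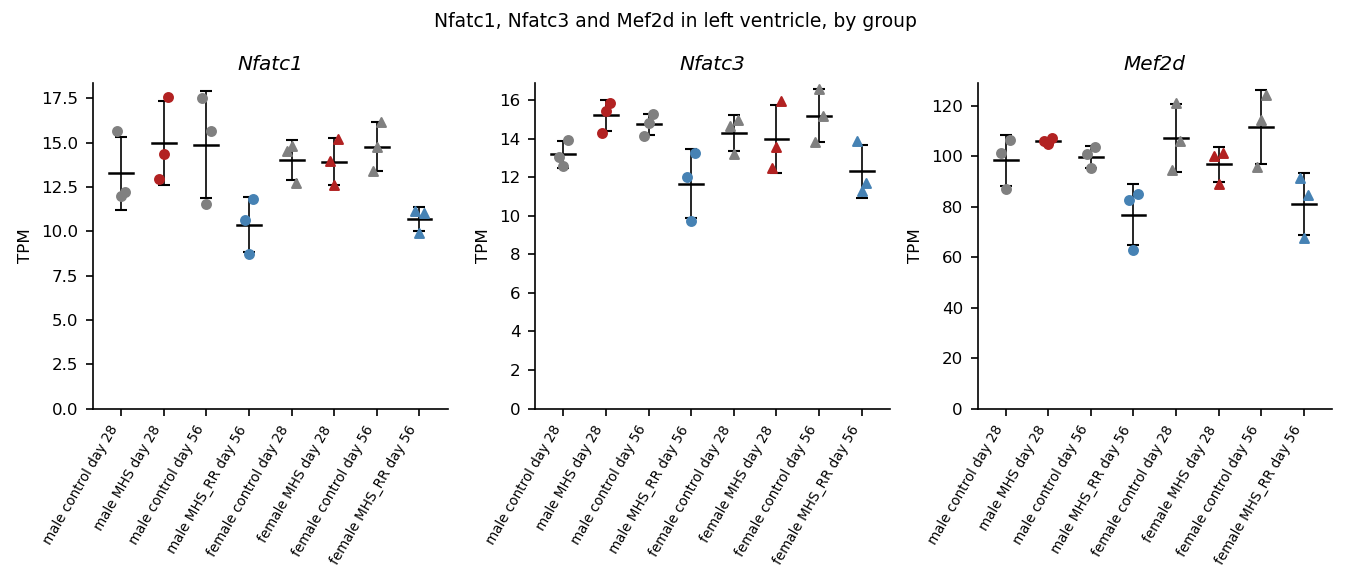
TPM (vertical axes, from 0) of Nfatc1, Nfatc3 and Mef2d in each of the 24 libraries (circles male, triangles female; grey control, red MHS, blue MHS_RR), with group means as lines and SD as bars (n = 3). The MHS_RR groups have the lowest mean for all 3 genes in both sexes, for Mef2d 76.9 and 81.2 TPM.

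The calls stand beside a broad shift of the table. In males 0 of the 10 genes were called in either direction, and 0.0919% of all genes (limma, 2345 genes with an unadjusted p under 0.05, Nfatc1, Nfatc3 and Mef2d among them). Ranges lay below the controls for 2 of the 10 and for 15% of all genes. In females 1 was called lower, against 4.56%, and the ranges of 3 lay below, against 22.7%. In the mean of both sexes 3 were lower, against 15.5%, and 0 higher, against 2.11%, and the median of the 10 genes was -0.06, equal to that of all tested genes to this precision. Marker lists of several cell types differed in the same comparison. The sum of 6 endothelial markers was 512 to 576 TPM in male controls of day 56 and 417 to 486 TPM in male MHS_RR, and 495 to 607 against 392 to 447 TPM in females, with 4 of 6 called lower in the mean of both sexes. Of 5 macrophage markers 4 were lower (147.7 to 219 TPM in controls and 122 to 156 TPM in MHS_RR, summed, over both sexes), and of 3 endocardial markers 1. None of the defining markers of these 3 lists was at 0 in these groups. All 3 tested erythroid markers were lower (median -0.57). The 4 listed summed to 2396 to 4022 TPM in controls and 1685 to 2735 TPM in MHS_RR, with 1 of them at 0 in every library of these groups. Of the other lists 2 of 5 fibroblast, 1 of 5 mural and 1 of 5 cardiomyocyte markers were lower, and 1 of 2 tested T and B cell markers was higher. The part of these cells in the Nfatc1, Nfatc3 and Mef2d results was not tested. Library composition moved with these genes as well. The length trend of a library, the correlation across genes of its deviation from the mean library with transcript length, correlated over the 24 libraries with Nfatc3 at 0.82, with Mef2d at 0.70 and with Nfatc1 at 0.46, and its GC trend, taken likewise with GC content, with Nfatc1 at 0.53. After correction for GC and length all 3 were still called lower in the mean of both sexes, Nfatc3 at -0.31 (adjusted p = 0.00421), Mef2d at -0.39 (0.00472) and Nfatc1 at -0.30 (0.0166).

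The effects at the 2 times were then compared directly, by subtracting the MHS effect from that of MHS_RR. In males Rcan1 (-1.08 ± 0.23, adjusted p = 0.00938, limma), Rcan2 (-0.42 ± 0.12, 0.0333) and Nfatc3 (-0.52 ± 0.15, 0.0389) had a lower effect after reverse remodeling. These were 3 of the 10 genes, against 7.21% of all genes. The median over all genes was itself -0.11 in males, and with median-of-ratios scaling, which put it at 0.02, Rcan2 was at -0.28 and Nfatc3 at -0.38 (adjusted p = 0.104 and 0.0667). Rcan1 was called without any single library and under 13 other settings, and Rcan2 and Nfatc3 were not called without any one of 7 and 8 of the 12 libraries (adjusted p up to 0.110 and 0.125). In females 0 of the 10 were called, against 2.46% of all genes (limma, 2225 with an unadjusted p under 0.05). Rcan1 there was at -0.44 ± 0.23 (adjusted p = 0.351), and the others lay between -0.51 (Nfatc4) and 0.25 (Ppp3ca). In the mean of both sexes 6 of the 10 were lower, against 16.6%, namely Rcan1 (-0.76 ± 0.17), Nfatc1 (-0.53 ± 0.14), Nfatc4 (-0.43 ± 0.14), Mef2d (-0.41 ± 0.12), Nfatc3 (-0.39 ± 0.11) and Rcan2 (-0.38 ± 0.08), with adjusted p between 0.00361 and 0.0347. Rcan1 and Rcan2 were called without any single library of the 24 and in all 13 other settings that kept the groups. Nfatc4 was called in 12 of the 24 fits that left out a library and in 8 of 12 other settings, and was not called with no filter (adjusted p = 0.0508), at median-of-ratios (0.0975) or quantile scaling (0.132) or without the 3 libraries with the largest GC and length deviations (0.0693). Mef2d was called in 19 of the 24 and in 10 of 13 settings, and not at median-of-ratios (0.0836) or quantile scaling (0.0607) or without those 3 libraries (0.0759). Nfatc1 lost its call at quantile scaling (0.0995) and Nfatc3 without the 2 libraries with the highest Myl7 (0.0543). For Rcan1 and Rcan2 the difference came with an increase at day 28 and values near control at day 56. Nfatc1 in the mean of both sexes was at 0.08 at day 28 and -0.45 at day 56, Mef2d at -0.01 and -0.42, and Nfatc3 at 0.08 and -0.30. Nfatc3 in males, where its difference was called, was at 0.19 and -0.32, neither called alone. Nfatc4 was at 0.29 and -0.14 in the mean of both sexes, of which the day 28 value was called.

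The catalytic subunits and 2 of the MEF2 genes had 0 calls in these comparisons. Ppp3ca ranged from 20.8 to 46.7 TPM over the 24 libraries, Ppp3cb from 39.9 to 64.0 TPM, Mef2a from 58.6 to 137 TPM and Mef2c from 18.2 to 40.1 TPM, and in each case the spread within the male controls was nearly that wide. Ppp3ca was at 21.2, 34.9 and 46.7 TPM in male controls of day 28 and at 35.9, 28.6 and 40.2 TPM in male MHS. Mef2a was at 59.2, 92.7 and 135 TPM and at 94.4, 67.6 and 105 TPM in the same libraries. The groups overlapped completely. With MHS the differences in the mean of both sexes were 0.00 ± 0.15 for Ppp3ca, -0.03 ± 0.09 for Ppp3cb, -0.13 ± 0.17 for Mef2a and 0.22 ± 0.16 for Mef2c (adjusted p between 0.375 and 0.999).

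These 4 genes were high and low in the same libraries. After the group means were taken out, the Pearson correlation over the 24 libraries was 0.97 between Ppp3ca and Mef2a, 0.97 between Mef2a and Mef2c, 0.93 between Ppp3ca and Mef2c and 0.88 between Ppp3ca and Ppp3cb. The lowest values were in male control day 28 replicate 1 and male control day 56 replicate 1. Their transcripts are poor in GC, with a GC content of 39.2% for Ppp3cb and 45.1% for Ppp3ca, lower than in all but 2.04% and 19.3% of the tested genes. Mef2a was at 44.4% and Mef2c at 45.3%. Low GC was not particular to these 4, since Nfatc3 was at 45.5%, and its correlation with the GC trend was 0.03. The GC trend of a library, as above, correlated over the 24 libraries with Ppp3ca at -0.92, with Mef2a at -0.84, with Mef2c at -0.82 and with Ppp3cb at -0.79, and with the other 6 genes between -0.07 (Rcan2) and 0.53 (Nfatc1). The length trend correlated with these 4 at 0.49 to 0.71 and with Rcan2 at 0.53. Without the 3 libraries with the largest GC and length deviations the correlation of Ppp3ca and Mef2a was 0.97, and after correction for GC and length it was 0.96 for that pair and -0.54 for Ppp3ca and Ppp3cb. These correlations are descriptions over libraries that share a scale and composition. Ppp3cb in MHS_RR changed sign with that correction, from 0.03 (adjusted p = 0.837) to -0.21 (0.0482).

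**Figure D4:**
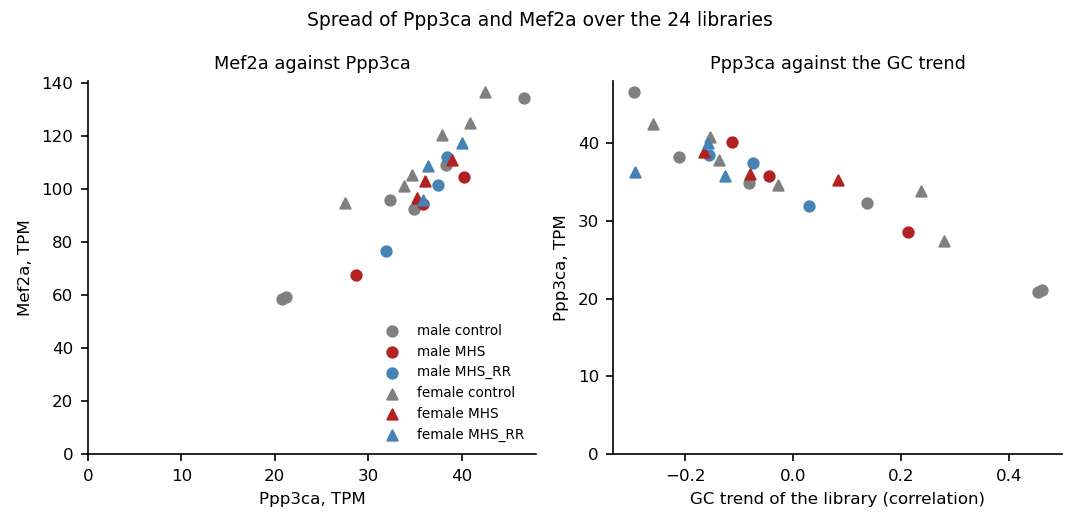
Mef2a against Ppp3ca in TPM (left) and Ppp3ca in TPM against the GC trend of the library (right, a correlation without unit), 1 point per library (circles male, triangles female; grey control, red MHS, blue MHS_RR). The points fall along 1 band (left) and Ppp3ca is lowest, near 21 TPM, in the 2 male controls with the highest GC trend (right).

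Shares within each family were compared by an exact permutation test within sex (two-sided, 400 arrangements, smallest p of 0.005, adjusted over 8 comparisons). Ppp3cb made up 44.8%, 41.1% and 42.2% of the TPM of the 3 catalytic subunit genes in male controls of day 28 and 39.7%, 41.0% and 40.1% in male MHS. In females it was 43.3%, 42.5% and 44.2% in controls and 41.6%, 41.1% and 41.2% in MHS. Every MHS library was below every control of its sex. The share was lower by -2.27 percentage points (exact permutation p = 0.005, adjusted p = 0.02). The testis-enriched subunit gene Ppp3cc rose with MHS in the mean of both sexes by 0.20 ± 0.06 (adjusted p = 0.0243, limma), while neither Ppp3ca nor Ppp3cb was called. Without female MHS replicate 2 the adjusted p of the share was 0.0533.

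Mef2c made up 10.2%, 12.8% and 13.2% of the MEF2 family in male controls of day 28 and 14.1%, 14.2% and 15.9% in male MHS. In females it was 14.0%, 9.90% and 13.0% in controls and 14.5%, 14.8% and 14.3% in MHS. All MHS values were above the controls of their sex. The share was higher by 2.43 percentage points with MHS (exact permutation p = 0.005, adjusted p = 0.02) and by 2.15 with MHS_RR (exact permutation p = 0.015, adjusted p = 0.04). The MHS_RR call ended without any one of 8 of the 12 libraries (adjusted p between 0.0533 and 0.08) and without the 3 libraries with the largest GC and length deviations, all of them controls (0.08), and the MHS call without female MHS replicates 1 or 2 (0.05 and 0.0533). The Mef2c share correlated with the GC trend at -0.70, and its part in the result was not tested. The Rcan1 share of the Rcan family was 22.3 ± 4.16% in male controls and 31.0 ± 2.32% in male MHS, and 15.5 ± 0.996% and 16.5 ± 2.55% in females, and the difference of 4.85 points over both sexes was not called (exact permutation p = 0.035, adjusted p = 0.07). The Nfatc4 share of the NFAT family was not called either (1.49 points with MHS, exact permutation p = 0.1, adjusted p = 0.133).

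Genes around the pathway were read from 8 lists of its parts, chosen with earlier results of these data known, and are described by counts. In the mean of both sexes 11.6% of all tested genes were called higher and 6.24% lower under MHS. The list of calcineurin regulators and anchors had 8 of 14 tested genes higher and 0 lower in MHS, with a median of 0.19 against 0.04 over all genes. The lowest p-values belonged to Fhl1 (0.84 ± 0.08, adjusted p = 3.61e-07), a LIM protein of the sarcomere, Fhl2 (0.34 ± 0.05), a LIM protein that binds calcineurin, the Z-disc actinin gene Actn2 (0.35 ± 0.05) and Mlip (0.25 ± 0.05), which encodes a lamin-interacting protein. In single sexes 4 of these 14 were higher in males and 6 in females, against 7.71% and 3.4% of all tested genes. Known targets of calcineurin, NFAT or MEF2 had 10 of 19 higher and 2 lower, with a median of 0.33. They were led by the skeletal actin gene Acta1 (2.94 ± 0.28), the stretch-responsive Ankrd1 (1.48 ± 0.18), the intermediate filament gene Des (0.45 ± 0.06) and the slow myosin gene Myh7 (2.11 ± 0.36). The 2 lower were Hrc (-0.32 ± 0.07), a calcium-binding protein of the sarcoplasmic reticulum, and the calcium pump gene Atp2a2 (-0.24 ± 0.06). Most of these are also general genes of the loaded myocyte, and other factors act on them too.

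The lists described next had fewer called genes under MHS. The calcium entry list, which holds genes of calcium removal as well, had 2 of 10 higher. These were the sodium-calcium exchanger gene Slc8a1 (0.42 ± 0.12) and the calcium sensor gene Stim2 (0.26 ± 0.08). In the list of NFAT kinases and scaffolds, Homer2, a scaffold that competes with calcineurin for NFAT, rose (0.57 ± 0.09, adjusted p = 0.000123) and the p38 kinase gene Mapk14 fell (-0.20 ± 0.06, adjusted p = 0.0189), 2 of 15. Cabin1, a calcineurin and MEF2 inhibitor, rose (0.19 ± 0.06, adjusted p = 0.0406), the only called gene of 13 in the list of MEF2 coactivators and partners. Other NFAT factors and partners had 0 of 10 called and the MEF2 kinases and histone deacetylases 0 of 15 (limma, 1 and 0 with an unadjusted p under 0.05).

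In MHS_RR 15.5% of all tested genes were called lower and 2.11% higher in the mean of both sexes, and the smaller list counts below are near the first share. Of 15 MEF2 kinases and histone deacetylases 7 were lower and 0 higher, with a median of -0.23 against -0.06 over all genes. They included the salt-inducible kinase genes Sik1 (-0.89 ± 0.17, adjusted p = 0.00287) and Sik3 (-0.30 ± 0.08), the protein kinase D gene Prkd2 (-0.38 ± 0.08) and the deacetylase gene Hdac5 (-0.23 ± 0.06), that is, kinases of these deacetylases and the deacetylases alike. Of the 10 genes of the calcium entry list 4 were lower. They were Atp2b4 (-0.40 ± 0.09), a plasma membrane pump gene of calcium removal, the calcium sensor gene Stim1 (-0.30 ± 0.07), the L-type channel gene Cacna1c (-0.33 ± 0.10) and Orai3 (-0.19 ± 0.06). NFAT kinases and scaffolds had 4 of 15 lower, Dyrk1b (-0.33 ± 0.09), Dyrk2 (-0.43 ± 0.13), Akt1 (-0.19 ± 0.06) and the scaffold gene Homer3 (-0.22 ± 0.07). Of 13 MEF2 coactivators and partners 3 were lower, the acetyltransferase gene Crebbp (-0.54 ± 0.13), Myocd (-0.43 ± 0.13), which encodes myocardin, and the methyltransferase gene Carm1 (-0.17 ± 0.05). Among other NFAT factors and partners Fosl2, an AP-1 subunit gene, fell (-0.79 ± 0.13, adjusted p = 0.000816) and so did Nfatc2 (-0.26 ± 0.09, adjusted p = 0.0449). The calmodulin gene Calm3 was the only lower gene of the 7 subunits and cofactors (-0.23 ± 0.06, adjusted p = 0.0121).

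Regulators and anchors split in MHS_RR, with the calcineurin homologue gene Chp1 (-0.17 ± 0.04), Lmcd1 (-0.22 ± 0.05), a LIM protein that binds calcineurin, and Rcan3 (-0.25 ± 0.07) lower and Fhl2 higher (0.18 ± 0.05). Chp1 had risen under MHS (0.19 ± 0.04, adjusted p = 0.00330). Targets had 1 of 19 higher, Myh7 (1.58 ± 0.36, adjusted p = 0.00666), and 4 lower, Hrc, Atp2a2, Nr4a1 (-1.11 ± 0.36) and Xirp1 (-0.25 ± 0.08). In single sexes 0 genes of the 8 lists were called in MHS_RR males, against 0.0919% of all tested genes. Between 0 and 2 of each list were lower in females, against 4.56%.

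**Figure D5:**
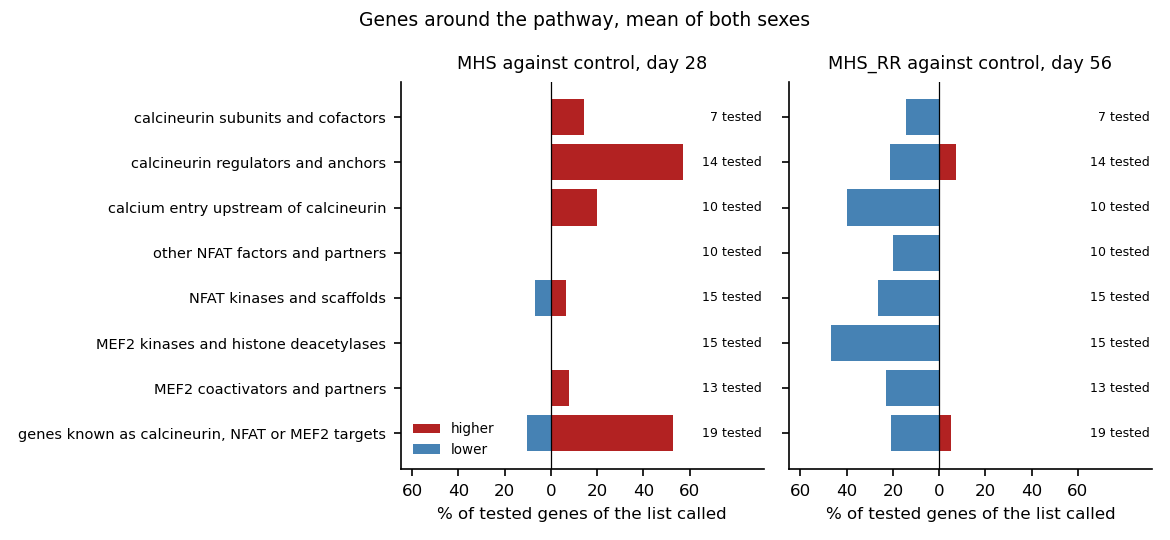
Percent of the tested genes of each of 8 lists (horizontal axes) that were called higher (red, to the right) or lower (blue, to the left) in the mean of both sexes, for MHS at day 28 and MHS_RR at day 56, with the number tested. Regulators and anchors and the targets extend furthest to the right under MHS, with 8 of 14 and 10 of 19, and MEF2 kinases and histone deacetylases furthest to the left under MHS_RR, with 7 of 15. Over all tested genes 11.6% were higher under MHS and 15.5% lower under MHS_RR.

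The genes whose log2(TPM + 1) was most like that of each of the 10 over the 24 libraries are given as a description by Pearson correlation. For Rcan1 they were Stradb (0.90), Popdc3 (0.89), the small heat shock protein gene Hspb8 (0.88), Ckap4 (0.88) and Aqp8 (0.87). For Rcan2 they were Golga3 (0.94), Ptpn11 (0.93), the M-band gene Myom1 (0.93), Clic5 (0.93) and Atf6 (0.91). Nfatc4 went with Mxra8 (0.89), Ltbp3, Fgfr1, Map6 and Scara3 (0.84 to 0.85). Nfatc1 went with Myadm, Gatad2a, Ube2h, Pigt and Git2 (0.90 each), and Nfatc3 with Wdfy3 (0.94), Ppp1r12b, Tspyl1, Casz1 and Mapk1ip1l (0.91 to 0.93). Mef2d went with Wiz (0.95), Ptpn23, Maml1, Sf1 and Zfp609 (0.93 to 0.94). Ppp3ca (Yme1l1, Tmtc3, Cul3 and Cul4b, 0.97 each), Mef2a (Lnpk, Oxr1, Rfc1, Nebl and 4932438A13Rik, 0.96 to 0.97), Mef2c (Map3k7, Celf2, Arl5a, Selenot and Pkn2, 0.96 each) and Ppp3cb (Psd3, Capn7, Fbxw7, Mfap3l and 4932438A13Rik, 0.91 to 0.92) had partners at high correlations too.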

How the data were processed

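The authors deposited 1 table of TPM for 24972 gene symbols in 24 columns, made with STAR and Salmon on mm9 per the labels (versions not given in the sources used here). Columns sum to a constant, so depth is unknown and no counting error is given. All columns were matched to a sample by the code in its title. Genes reaching 1 TPM in 3 or more libraries (13058) were taken as log2(TPM + 1), where changes of low genes are understated, and fitted with limma 3.58.1 in R 4.3.3 with 8 group means and an intensity trend (16 residual degrees of freedom). P-values are two-sided, adjusted over all tested genes by Benjamini-Hochberg within each of 13 comparisons, and called under 0.05. Family shares were tested by exact permutation. Length and GC content came from GENCODE M21 by symbol (12931 genes, 99%). Promoters came from RefSeq, GRCm38.p6. The fit was tested on simulated data. The members and lists were chosen with earlier results of these data known. The rule for named genes took all 10 members in every comparison (given by counts and the extremes where few were called) and up to 4 called genes of lowest p per list in the mean of both sexes, while single sexes are given as counts. The text departs from that rule, with more than 4 named for the targets under MHS and MHS_RR and for regulators and anchors under MHS. The 5 genes most correlated with each member are named, except for 1 result that is not reported here. The markers were named as sums, Myl7 apart, which was chosen after its values were seen. The alternatives were the pseudocount (0.1), filters, scaling, GC and length, a replicate block, the fit and each library left out. Leaving out 3 libraries by GC and length deviation, or 2 by Myl7, was chosen after seeing the data.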

Additional observations from a re-analysis of the deposited data

Results flagged for a closer look

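Some effects differed between the 2 times by the test of the difference itself (the MHS_RR effect minus the MHS effect, limma, log2 scale). In males these were Rcan1 (-1.08), Rcan2 (-0.42) and Nfatc3 (-0.52). Rcan2 was called there in 5 and Nfatc3 in 4 of the 12 fits that left out a library. Neither was called in males at median-of-ratios scaling (adjusted p = 0.104 and 0.0667) or quantile normalization (0.0669 and 0.0687). In the mean of both sexes they were Rcan1 (-0.76), Rcan2 (-0.38), Nfatc1 (-0.53), Nfatc3 (-0.39), Nfatc4 (-0.43) and Mef2d (-0.41). In that mean, Nfatc4 was called in 12 and Mef2d in 19 of the 24 fits that left out a library, and neither was at median-of-ratios scaling (adjusted p = 0.0975 and 0.0836) or quantile normalization (0.132 and 0.0607). Nfatc1 in that mean lost its call at quantile normalization (0.0995), and Nfatc3 without the 2 libraries with the highest Myl7 (0.0543). The 2 times also differ in the treatment state of the mice, so time and treatment state cannot be told apart here. Groups of 3 libraries were too small for a test of single outlying values.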

How the results depend on the processing

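Counts of the 10 genes called depended on the grouping. Grouping by the time and treatment tags gave 0 for MHS in males, in females and in the mean of sexes, 5 for MHS_RR in males, 6 in the mean of sexes and 3 between control days. Over all tested genes the tags gave 0% for MHS in the mean of sexes, and 11.6% higher and 6.24% lower between control days. For the other counts of this section the share over all genes is not given here. The tags turned the share differences to 0.818 points for Ppp3cb and to -0.0252 (MHS) and -0.313 (MHS_RR) for Mef2c, as the 2 sets of labels exchange these conditions. For MHS in females 0 were called with no trend, in a fit to the compared groups, or without the 2 libraries with the highest Myl7. For MHS_RR 3 were called with array weights in males and in females, and 0 in females with no filter, median-of-ratios scaling, GC and length correction, a fit to the compared groups or without the 3 libraries of largest GC and length deviation. For the MHS_RR minus MHS effect, males had 1 with no filter, median-of-ratios scaling, quantile normalization, a fit to the compared groups or without those 3 libraries, and 5 with array weights. Females had 1 with array weights or a replicate block with GC and length correction, and the mean of sexes 3 under quantile normalization. For female against male controls 0 were called in a fit to the compared groups, without those 3 libraries or without the 2 Myl7 libraries. The Mef2c share difference in MHS_RR was 1.49 points without those 3 libraries, and Ppp3cb in MHS_RR was -0.21 with GC and length correction. The causes were not tested.

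With each library left out in turn, counts ranged from 1 to 2 for MHS in males, 0 to 1 in females, 2 to 3 in the mean of sexes, 0 to 1 for MHS_RR in females, 1 to 4 for the MHS_RR minus MHS effect in males, 4 to 6 in its mean of sexes and 0 to 1 for female against male controls, and did not move in the other 6 comparisons. Share differences ranged from -2.67 to -1.74 points (Ppp3cb, MHS), 1.83 to 2.85 (Mef2c, MHS) and 1.68 to 2.63 (Mef2c, MHS_RR). Of 84 same-numbered pairs 30 correlated over 0.1 (from -0.397 to 0.573). Pairs of unlike number were not compared, so whether replicate numbers pair the samples cannot be told from this. With the replicate block, 2 genes were called for MHS in males and 4, not 3, for the MHS_RR minus MHS effect in males, and no other count moved. The median of all genes in the male MHS_RR minus MHS effect was -0.11 as deposited, 0.01 after quantile normalization and 0.02 with median-of-ratios scaling.

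Depth is unknown from TPM, so the precision of the lowest gene, Nfatc4 at 3.40 TPM, rests on the spread within groups over the 24 libraries and on the intensity trend.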
